A study of Mus musculus with 38 samples.

Results

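The Hox genes are the mouse homeobox genes of the clusters a, b, c and d. They were taken by symbol, Hoxa to Hoxd followed by a number from 1 to 13, and 39 of the 23481 entries of the bulk table met that rule; the same 39 were listed in both kinds of single-cell file. The study followed E14 mouse embryonic stem cells (mESCs), an established line, through differentiation with all-trans retinoic acid (RA), asking when single cells left pluripotency and which lineage they took. Bulk libraries, SCRB-seq plates (single cells counted by 3′ tags) and SMART-seq2 cells (full-length single-cell cDNA) were available. Here the Hox genes were followed by cluster and by paralogue number, from their first appearance to the sorted and cultured cells.

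All samples came from the same line. The mESC libraries, 2 in bulk, were from cells kept in 2i/L, a medium with LIF, the MEK inhibitor PD0325901 and the GSK3 inhibitor CHIR99021. The RA samples had the inhibitors and LIF removed and received 0.25 µM RA in N2B27 medium, so that RA and the loss of 2i/L cannot be told apart. Bulk time points were 6, 12, 24, 36, 48, 60, 72, 84 and 96 h, 1 library each. At 96 h cells were sorted by surface staining into ectoderm-like (PDGFRA-, CD24+) and XEN-like cells (PDGFRA+, CD24-; XEN stands for extraembryonic endoderm), with 2 biological replicates each. Sorted cells were also grown on in N2B27 with EGF and FGF2, a medium for which RA was not listed: 1 ectoderm-like culture at passage 5 and 1 XEN-like culture kept as floating aggregates for 3 weeks. PDGFRA- cells were further split by CD24 signal at 48 h (quartiles Q1 to Q4) and at 72 h (terciles T1 to T3, beside a PDGFRA+ CD24- fraction), 1 library each.

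Hox genes encode homeodomain transcription factors that give cells their position along the head-to-tail axis. In each cluster the genes lie in the order of their paralogue numbers, and in the embryo the low numbers (3′ end) are switched on early and reach far forward, to the hindbrain, while the high numbers (5′ end) follow later and mark trunk and tail. RA acts through receptors that bind DNA beside several low-numbered members and is the classical inducer of these genes in stem cell cultures, where hindbrain-like and spinal cord-like neural cells express them and extraembryonic endoderm largely does not.

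On the GRCm38 build cluster a spans 105.291 kb of chromosome 6 (chr6:52155590-52260880, 11 members, minus strand), cluster b 173.941 kb of chromosome 11 (chr11:96194316-96368256, 10 members, plus strand), cluster c 115.75 kb of chromosome 15 (chr15:102921103-103036852, 9 members, plus strand) and cluster d 96.833 kb of chromosome 2 (chr2:74668310-74765142, 9 members, plus strand). The RefSeq promoter table (GRCm38.p6) held windows for 22 of the 39 genes. The 250 bases before the start are shown for 5 members that the results below turn on: Hoxb1, which specifies the hindbrain segment of the facial nerve; Hoxa2, the patterning gene of the hindbrain and the branchial arches behind the jaw; Hoxb4, known from blood stem cells; Hoxb8, a gene of the posterior neural tube; and Hoxa5, which acts in the lung and the cervical skeleton. Capitals mark matches, on either strand, to the receptor half-site (AGGTCA, its variant GGGTCA, its variant AGTTCA or its variant GGTTCA), the Hox-Pbx site TGATNNAT, the Meis site TGACAG or TATAAA.
Hoxb1 (chr11:96365508-96365757, plus strand): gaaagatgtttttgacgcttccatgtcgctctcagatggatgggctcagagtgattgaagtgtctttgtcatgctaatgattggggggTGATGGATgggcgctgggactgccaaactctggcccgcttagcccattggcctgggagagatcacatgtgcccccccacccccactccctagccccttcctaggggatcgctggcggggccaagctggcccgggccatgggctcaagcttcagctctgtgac
Hoxb4 (chr11:96318017-96318266, plus strand): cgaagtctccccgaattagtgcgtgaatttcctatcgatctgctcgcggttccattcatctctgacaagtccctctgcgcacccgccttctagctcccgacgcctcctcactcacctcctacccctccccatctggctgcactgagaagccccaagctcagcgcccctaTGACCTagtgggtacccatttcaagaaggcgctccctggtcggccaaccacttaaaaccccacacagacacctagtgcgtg
Hoxb8 (chr11:96281655-96281904, plus strand): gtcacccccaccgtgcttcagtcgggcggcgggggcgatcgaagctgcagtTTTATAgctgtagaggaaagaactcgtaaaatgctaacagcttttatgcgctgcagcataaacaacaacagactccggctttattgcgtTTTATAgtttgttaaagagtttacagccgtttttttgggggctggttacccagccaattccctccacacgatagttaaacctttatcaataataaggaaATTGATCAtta
Hoxa2 (chr6:52164832-52165081, minus strand): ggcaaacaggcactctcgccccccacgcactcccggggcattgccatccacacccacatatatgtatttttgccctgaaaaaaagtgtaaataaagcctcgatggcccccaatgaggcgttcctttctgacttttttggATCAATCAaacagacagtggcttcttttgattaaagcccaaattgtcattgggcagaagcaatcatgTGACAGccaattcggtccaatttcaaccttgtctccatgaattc
Hoxa5 (chr6:52204588-52204837, minus strand): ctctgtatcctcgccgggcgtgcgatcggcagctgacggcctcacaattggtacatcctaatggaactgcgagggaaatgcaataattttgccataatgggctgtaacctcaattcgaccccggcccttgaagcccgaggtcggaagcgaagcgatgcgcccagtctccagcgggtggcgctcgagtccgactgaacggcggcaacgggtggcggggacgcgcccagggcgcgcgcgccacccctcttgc

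The capitals in the Hoxb1 window are 1 match to the Hox-Pbx site. The Hoxb4 window held 1 receptor half-site, the Hoxb8 window 1 Hox-Pbx site and 2 TATAAA matches, the Hoxa2 window 1 Hox-Pbx site and 1 Meis site, and the Hoxa5 window no match. Over the 24 windows of Hox genes, 4 held the Hox-Pbx site (Hoxa2, Hoxb1, Hoxb8 and Hoxd11), against 7.68% of the 32851 windows of all genes. The half-site was in 9 of the 24, against 38.6% of all windows, TGACAG in 2 against 15.9%, and TATAAA in 4 against 12.4%. Half-sites as direct repeats with 5 or 2 bases between them, the arrangements best known to bind RA receptors, were in 0 of the 24 and in 0.0883% and 0.174% of all windows. These are descriptions of letters in short windows; the known RA response elements of Hox genes also lie outside such windows.

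The bulk libraries held between 1063830 and 2459483 UMIs (unique molecular identifiers, counted as transcripts), and levels are given as CPM, the UMIs per 1000000 UMIs of the library. Intervals are exact (95%, Poisson for levels and conditional binomial for ratios) and cover counting error only, since each time point and each fraction is 1 library. A count of 0 allows a level of up to 3 UMIs, which was 1.22 CPM for Hoxb1 in the deepest library (48 h) and 2.82 CPM in the shallowest (Q3 at 48 h). The sorted cells carried their markers: all 11 XEN markers were higher in XEN-like cells than in mESC and all 10 ectoderm markers higher in ectoderm-like cells, by the edgeR test described below, while 8 of the XEN markers were higher in ectoderm-like cells too. Of 6 mesoderm markers 1 could be tested, Twist1, which was higher in ectoderm-like cells.

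Of the 39 members, 25 reached 10 UMIs in at least 1 bulk library, and 2 (Hoxa13 and Hoxd12) had 0 UMIs in every bulk library. The other 12 (Hoxa6, Hoxa11, Hoxc6, Hoxc11, Hoxc12, Hoxd1, Hoxd3, Hoxd4, Hoxd8, Hoxd9, Hoxd10 and Hoxd11) reached between 1 and 7 UMIs at their highest. In whole cultures and sorted fractions, fewer cells expressing a gene and less RNA per cell cannot be told apart.

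The Hox genes as a group were low for 12 h and then became abundant. Summed over the 39 members the level stood at 28 and 23.5 CPM for the mESC pair, at 23 after 6 h of RA and 44.5 after 12 h. The 12 h sum (36.2 to 54.1) lay above the intervals of both mESC libraries (21.6 to 35.8 and 17.7 to 30.7), and cluster a stood at 25.6 CPM (19.4 to 33.03) against 10.5 and 4.35, while cluster b, at 11.9, was level with the higher mESC library (11.8). The sum then went to 307 CPM by 24 h, 960 by 36 h and 996 by 48 h. It came down to 902 CPM by 60 h, 521 by 72 h, 270 by 84 h and 139 by 96 h. The highest sum was therefore at 48 h, with 36 h close below it, and at 96 h the sum stood at 14% of that peak. Hoxb2, which patterns the same hindbrain region, gave most of these tags: it made up 45.5% of all Hox UMIs at 24 h and between 55.9% and 66.3% from 36 to 96 h, against 4.69% and 11.1% in the mESC libraries.

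An onset was called at the first time under RA with at least 10 UMIs and a CPM at least 4 times the higher mESC library (with an mESC floor of 3 UMIs over both libraries). By this rule 20 of the 39 Hox genes had an onset, and 21 had 10 UMIs at any time under RA. Of the 10436 genes of the table with at least 10 UMIs in the time course, 14.3% had an onset. No Hox gene had its onset at 6 or 12 h, 9 had it at 24 h, 5 at 36 h, 5 at 48 h and 1 at 60 h. There is no replicate of any time point, so these calls describe 1 culture series. The count of 0 by 12 h turned on the mESC libraries: without mESC replicate 1 it was 2 (Hoxa7 among them) and without mESC replicate 2 it was 1 (Hoxb2).

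Clusters a and b held most of the onsets. In cluster a 8 of 11 members had an onset, 6 of them at 24 h, with Hoxa3, Hoxa4, Hoxa5, Hoxa7 and Hoxa10 among these, Hoxa9 at 36 h and Hoxa2 at 48 h. In cluster b 9 of 10 had one: Hoxb1, Hoxb2 and Hoxb7 at 24 h, Hoxb4, Hoxb5, Hoxb6 and Hoxb9 at 36 h, and Hoxb3 and Hoxb8 at 48 h. Cluster c followed with 3 of 9, Hoxc5 and Hoxc8 at 48 h and Hoxc4 at 60 h, and cluster d had 0 of 9, no member of it reaching 10 UMIs in the time course. The summed level of cluster d was highest at 60 h, at 6.00 CPM (2.88 to 11.04), against 37.8 (29.1 to 48.4) for cluster c, 171 for cluster a and 688 for cluster b at the same time.

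By paralogue number, 9 of the 12 members numbered 1 to 4 had an onset, 8 of the 11 numbered 5 to 8, and 3 of the 16 numbered 9 to 13 (Hoxa9, Hoxa10 and Hoxb9). Within a cluster the onset times, as called, did not run step by step with the number: Hoxa10 was called before Hoxa2, and Hoxb7 before Hoxb3 and Hoxb4. Hoxa10, which patterns the lumbar region, reached 11 UMIs at 24 h and 14 at 36 h. Hoxa2 had 7 at both times and 11 at 48 h. Hoxb7 had 15 UMIs at 24 h and 7 at 36 h. Hoxb4 had 9 at 24 h, under the limit of 10, and 13 at 36 h. Hoxb3 had 3 UMIs at 24 h, 3 at 36 h and 15 at 48 h. All these calls rest on small numbers, and they do not settle the order of Hoxb7 and Hoxb4. Members numbered 9 to 13 made up 45.3% and 63% of the few Hox UMIs in mESCs and 3.59% at 36 h.

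**Figure D1:**
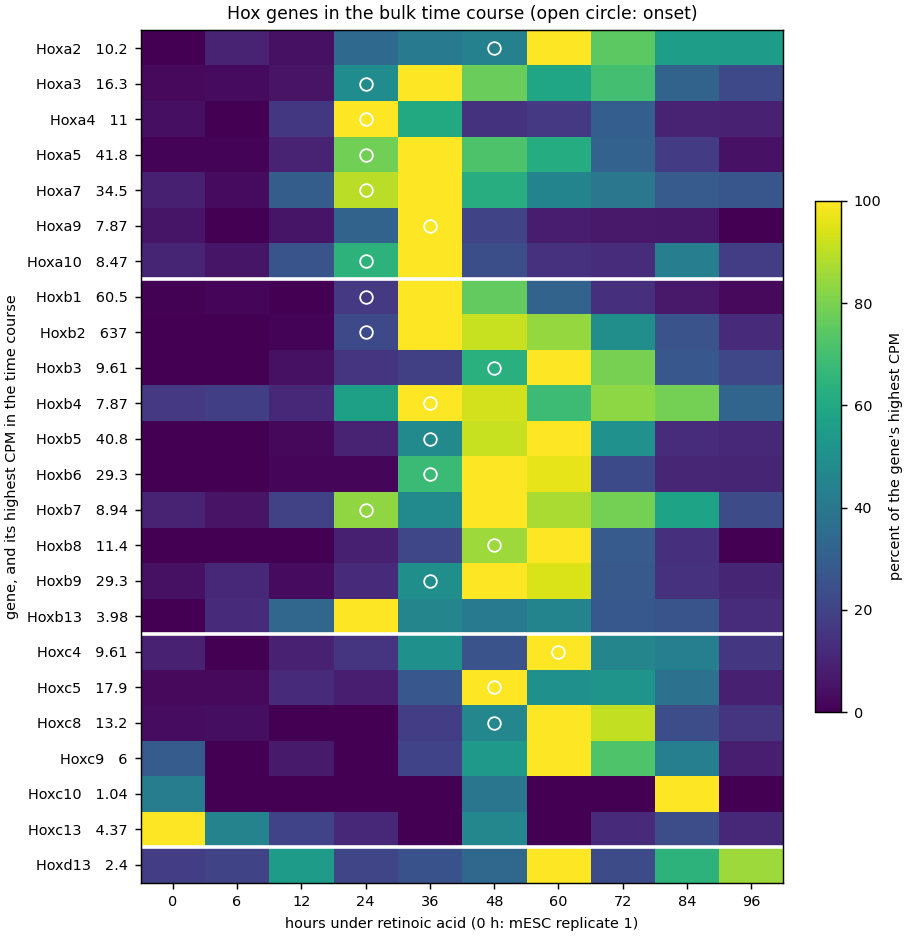
Level of 24 Hox genes with at least 10 UMIs in a bulk library (rows, ordered by cluster and paralogue number) across the time course in hours (columns), as percent of each gene's own highest CPM; 0 h is mESC replicate 1, an open circle marks the onset and the number beside the name is the highest CPM. Clusters a and b fill from 24 to 60 h, cluster c from 48 h, and Hoxc13 is highest at 0 h.

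The time at which the level peaked spread from 24 to 60 h. Among the 21 members with 10 UMIs under RA, 1 peaked at 24 h (Hoxa4), 8 at 36 h, 5 at 48 h and 7 at 60 h. Hoxb1 and Hoxb2 were both at their peak at 36 h, and Hoxa2 and Hoxb3 at 60 h. The first time at or above 50% of the peak was 24 h for Hoxa4, Hoxa5, Hoxa7 and Hoxa10 and 60 h for Hoxa2, which thus trailed members with higher numbers in its own cluster.

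Hoxb2 had 1.31 and 2.61 CPM in mESCs, 2.44 at 6 h, 5.29 at 12 h, 139 at 24 h, 637 at 36 h, 583 at 48 h, 536 at 60 h, 315 at 72 h, 162 at 84 h and 77.9 at 96 h. Its step between 12 and 24 h, from 12 to 280 UMIs, was the largest of any member in UMIs. Hoxb1, its neighbour at the 3′ end of the cluster, was at 0.437 and 0.435 CPM in mESCs, 0.978 at 6 h, 0 at 12 h, 9.96 at 24 h, 60.5 at 36 h, 45.9 at 48 h, 19.2 at 60 h, 8.17 at 72 h, 4.15 at 84 h and 1.54 at 96 h. From 36 to 60 h the level of Hoxb1 had come down to 19.2 (13.1 to 27.1) CPM while that of Hoxb2 was still 536 (501 to 572).

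Hoxa5 was at 0.437 and 0.871 CPM in mESCs, 0.489 at 6 h, 3.96 at 12 h, 32.9 at 24 h, 41.8 at 36 h, 30.1 at 48 h, 25.8 at 60 h, 13.1 at 72 h, 7.26 at 84 h and 2.05 at 96 h. Its 9 UMIs at 12 h, against 1 and 2 in mESCs, fell just under the limit of 10.

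Hoxb5, a gene of the posterior hindbrain and the enteric neural crest, was at 0 and 0.435 CPM in mESCs, 0 at 6 h, 0.881 at 12 h, 3.98 at 24 h, 19.4 at 36 h, 37.4 at 48 h, 40.8 at 60 h, 20.7 at 72 h, 5.19 at 84 h and 4.61 at 96 h. It lagged Hoxa5, its paralogue in cluster a, which had passed 50% of its peak at 24 h where Hoxb5 did so at 48 h. Hoxa7, a thoracic member, was at 3.06 and 1.31 CPM in mESCs, 0.978 at 6 h, 10.1 at 12 h, 30.9 at 24 h, 34.5 at 36 h, 21.5 at 48 h, 15.6 at 60 h, 13.6 at 72 h, 9.85 at 84 h and 9.22 at 96 h. Its 23 UMIs at 12 h passed the limit of 10, and its CPM was under 4 times that of the higher mESC library.

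**Figure D2:**
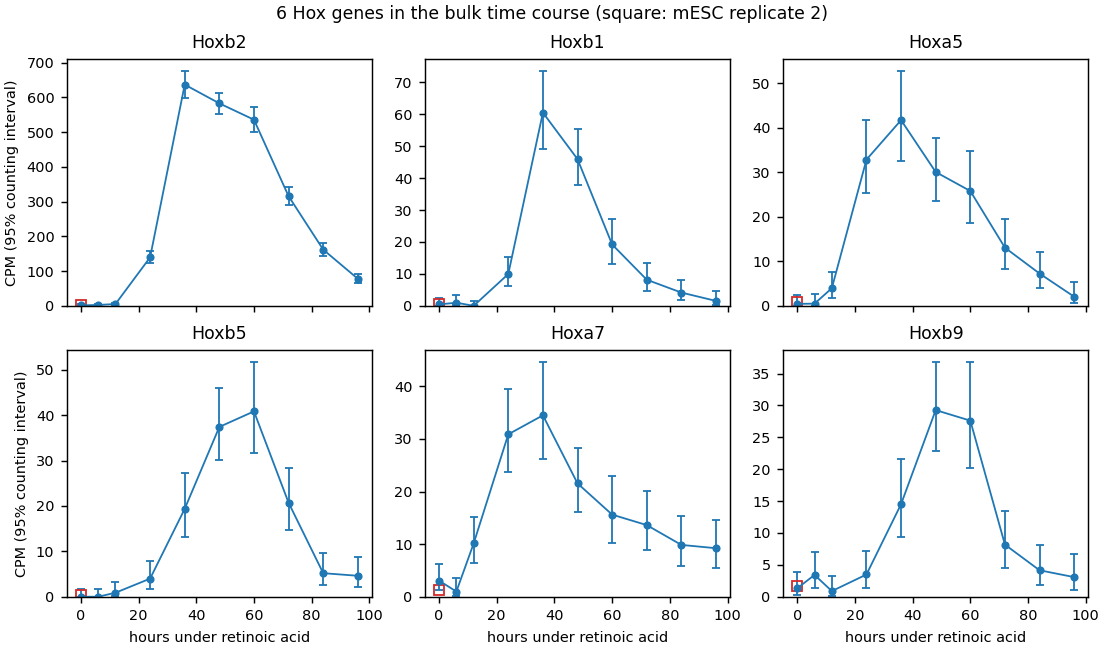
CPM of Hoxb2, Hoxb1, Hoxa5, Hoxb5, Hoxa7 and Hoxb9 against hours of RA, 1 library per point with exact 95% Poisson intervals; the square is the second mESC library. Hoxb2 reaches 637 CPM at 36 h, Hoxb5 40.8 CPM at 60 h, and each of the 6 is below its peak at 96 h.

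The remaining members with an onset were less abundant by tags. Hoxb6 and Hoxb9 both peaked at 48 h at 29.3 CPM (72 UMIs), Hoxc5 at 48 h at 17.9 CPM and Hoxa3, which acts in the thymus and parathyroid, at 36 h at 16.3 CPM. Hoxc8, a brachial and thoracic member, peaked at 60 h at 13.2 CPM, Hoxb8 at 60 h at 11.4, Hoxa4 at 24 h at 10.96 and Hoxa2 at 60 h at 10.2. Hoxb3, Hoxc4, Hoxb7, Hoxa10, Hoxa9 and Hoxb4, and also Hoxc9, which had no onset, peaked between 6.00 and 9.61 CPM. These levels rest on 10 to 22 UMIs.

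Of the members with the most tags in the cultures, Hoxb2 and Hoxa7 are given above, and the others follow here. Hoxb9 had 3 and 4 UMIs in mESCs, 7 at 6 h, 2 at 12 h, 7 at 24 h, 24 at 36 h, 72 at 48 h, 46 at 60 h, 15 at 72 h, 8 at 84 h and 6 at 96 h. Hoxb7 had 2 and 0 UMIs in mESCs, 1 at 6 h, 4 at 12 h, 15 at 24 h, 7 at 36 h, 22 at 48 h, 13 at 60 h, 13 at 72 h, 10 at 84 h and 4 at 96 h. Hoxb9 thus had a clear maximum at 48 h, and Hoxb7 lay between 7 and 22 UMIs from 24 to 84 h. Hoxa10 had 2 UMIs in each mESC library, 1 at 6 h, 5 at 12 h, 11 at 24 h, 14 at 36 h, 5 at 48 h, 2 at 60 h, 2 at 72 h, 7 at 84 h and 3 at 96 h, an early and brief maximum. Hoxd13 had 1 and 0 UMIs in mESCs and between 1 and 4 at each time under RA.

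At 96 h most members had lost most of their peak level in the whole culture. The percent of the peak left at 96 h had a median of 11.3 over the 21 members and lay between 0 (Hoxa9 and Hoxb8, 0 UMIs) and 55.2 (Hoxa2, 11 UMIs), and 18 of the 21 were below 25%. Over the same span the culture changed in makeup: the summed level of 11 XEN markers (all detected at 96 h) was 517 CPM at 48 h and 12296.5 CPM at 96 h, and that of 10 ectoderm markers 1854 and 1631 CPM. The part of that change in the Hox values was not tested.

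A few members ran the other way. Hoxc13, known from hair follicles, had 10 and 6 UMIs in mESCs, 4 at 6 h, 2 at 12 h, 1 at 24 h and between 0 and 5 from 36 to 96 h. Hoxc12, its neighbour, had 7 and 7 UMIs in mESCs, 6 at 6 h, 2 at 12 h and 0 at each time from 24 to 96 h. Hoxb13, a gene of the tail bud and prostate, had 0 UMIs in one mESC library and 14 in the other, so that its level in mESCs was not stable between replicates.

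**Figure D3:**
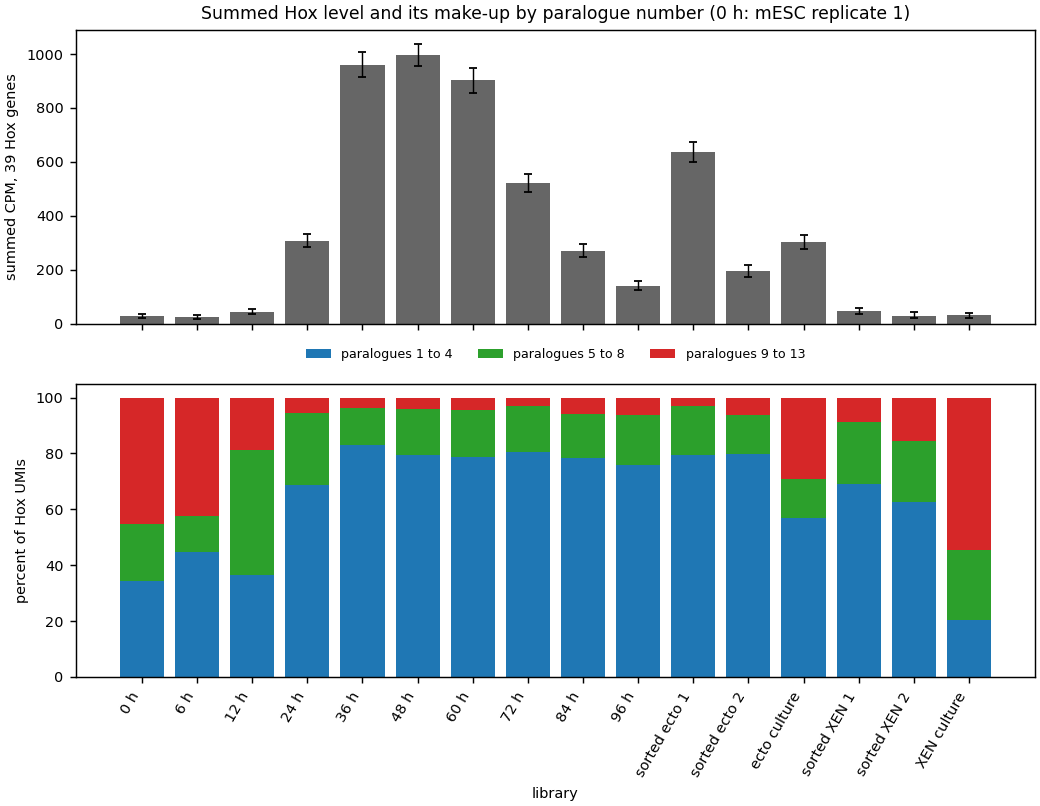
Summed CPM of the 39 Hox genes with exact 95% Poisson intervals (upper bars) and percent of all Hox UMIs from paralogues 1 to 4, 5 to 8 and 9 to 13 (lower bars) in 16 bulk libraries, 0 h being mESC replicate 1. The sum is highest at 48 h (996 CPM), and the share of paralogues 9 to 13 is 3.59% at 36 h, 29% in the ectoderm-like culture and 54.5% in the XEN-like culture.

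In SCRB-seq the Hox genes appeared in a growing share of single cells. After keeping the 2449 of 3456 wells with at least 2000 UMIs and thinning each to 2000, the share of cells with a Hox UMI was 9.22% at 0 h, 1.49% at 6 h and 3.86% at 12 h, the mESC value being the background. It was 21% (exact binomial interval 16.4 to 26.1) at 24 h, 42.8% at 36 h, 61.4% at 48 h, 75.5% (69.9 to 80.4) at 60 h, 60.0% at 72 h and 21.2% (14.7 to 29) at 96 h. Without thinning the shares were 20.2% at 0 h, 12.5% at 6 h, 12.6% at 12 h, 35.1% at 24 h, 69.2% at 36 h, 80.5% at 48 h, 88.6% at 60 h, 78.7% at 72 h and 40.9% at 96 h. The order of the times from 24 h on was the same by both, with median depths between 3552 and 5069 UMIs per cell. Close times changed places under other settings. With another seed for the thinning 72 h (65.5%) lay above 48 h (63.5%), and in cells thinned to 4000 UMIs 24 h (35.9%) lay above 96 h (35.7%). Each time was 1 plate and cells are not replicates, so no test was made. All 9 plates share the names of their 384 wells, which are positions and not shared cells.

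Cells with UMIs of at least 2 different Hox genes, after thinning, made up 0% at 0, 6 and 12 h, 3.09% at 24 h, 13.2% at 36 h, 25.6% at 48 h, 42.5% at 60 h, 29.4% at 72 h and 2.92% at 96 h. Hox UMIs per 10000 were 0.557 at 0 h, 0.212 at 6 h, 0.297 at 12 h, 1.46 at 24 h, 3.5 at 36 h, 6.79 at 48 h, 8.57 at 60 h, 7.61 at 72 h and 1.62 at 96 h. Both measures were highest at 60 h, where the bulk series had its highest sum at 48 h. Whether the bulk and SCRB-seq samples came from the same differentiation was not stated.

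At 0 h the Hox UMIs in SCRB-seq were mostly Hoxc13. It gave 54 of the 105 Hox UMIs, in 28 of 282 cells, and 10, 2 and 1 UMIs at 6, 12 and 24 h. Hoxb1 gave 0, 1 and 0 UMIs at 0, 6 and 12 h, 28 at 24 h, 192 at 36 h, 283 at 48 h, 233 at 60 h, 45 at 72 h and 0 at 96 h. Hoxb2 gave 3, 1 and 0 UMIs at 0, 6 and 12 h, 11 at 24 h, 165 at 36 h, 183 at 48 h, 165 at 60 h, 165 at 72 h and 20 at 96 h. Hoxb1 was thus not counted in the 137 cells of 96 h, where a limit of 3 cells is 2.19%, while Hoxb2 was in 14 of them (10.2%, unthinned), against 3 of 282 at 0 h.

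Hoxb5 gave 2, 0, 0, 2, 53, 59, 189, 121 and 6 UMIs at 0, 6, 12, 24, 36, 48, 60, 72 and 96 h, its highest value again coming after that of Hoxb1. Hoxd3 and Hoxd8, under 10 UMIs in every bulk library, were counted here: Hoxd3 gave 22 UMIs at 60 h and 37 at 72 h, and Hoxd8 15 at 72 h. Of the 19 members with a peak in both assays, the SCRB-seq peak came at a later time in 14, at the same time in 5 and earlier in 0, and the sets of times differ, SCRB-seq having no 84 h plate.

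In SMART-seq2 cells, whose values are RPKM scaled by the cell's total and so are per length, Hox genes were detected in nearly every cell, the share of cells with a member above 1 RPKM being 98.8% already at 0 h. The median number of members above 1 RPKM per cell was 4 in 82 cells at 0 h, 3 in 86 cells at 12 h, 6 in 89 cells at 24 h and 12 in 82 cells at 48 h, with ranges of 0 to 8, 0 to 11, 0 to 15 and 1 to 19. Members above 1 RPKM in at least 50% of cells numbered 2, 1, 3 and 10. Each time was again 1 culture.

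Hoxb1 was above 1 RPKM in 17 of 82 cells at 0 h (20.7%, 12.6 to 31.1), 0 of 86 at 12 h (up to 4.20%), 26 of 89 at 24 h (29.2%, 20.1 to 39.8) and 63 of 82 at 48 h (76.8%). It was thus in fewer cells at 12 h than in mESCs, and at 24 h its interval overlapped that of the mESCs.

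Hoxb2 was above 1 RPKM in 3 of 82 cells at 0 h, 7 of 86 at 12 h, 32 of 89 at 24 h and 76 of 82 at 48 h, with means of 0.482, 2.07, 15.3 and 145 RPKM. Hoxa5 was above 1 RPKM in 10, 36, 69 and 62 cells, with means of 2.36, 16.8, 32.7 and 50.6 RPKM. At 12 h Hoxa5 was in 41.9% (31.3 to 53) of cells against 12.2% (6.01 to 21.3) of mESCs, a higher share at a time before the first onset in the bulk series. Hoxc13 was above 1 RPKM in 41, 16, 11 and 9 cells, with means of 16.6, 9.89, 4.68 and 4.42 RPKM, the reverse course.

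Cluster d, nearly silent by bulk tags, was counted in single cells at 48 h. Hoxd3 was above 1 RPKM in 0, 0, 1 and 25 cells at the 4 times, and Hoxd1, its 3′ neighbour, in 3, 6, 7 and 27. The order of levels per length at 48 h had Hoxb2 (145 RPKM) above Hoxa5 (50.6) and Hoxb1 (50.0). Hoxa5 and Hoxb1 do not differ in that order beyond the spread over cells, whose medians were 33.1 and 34.4 RPKM.

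**Figure D4:**
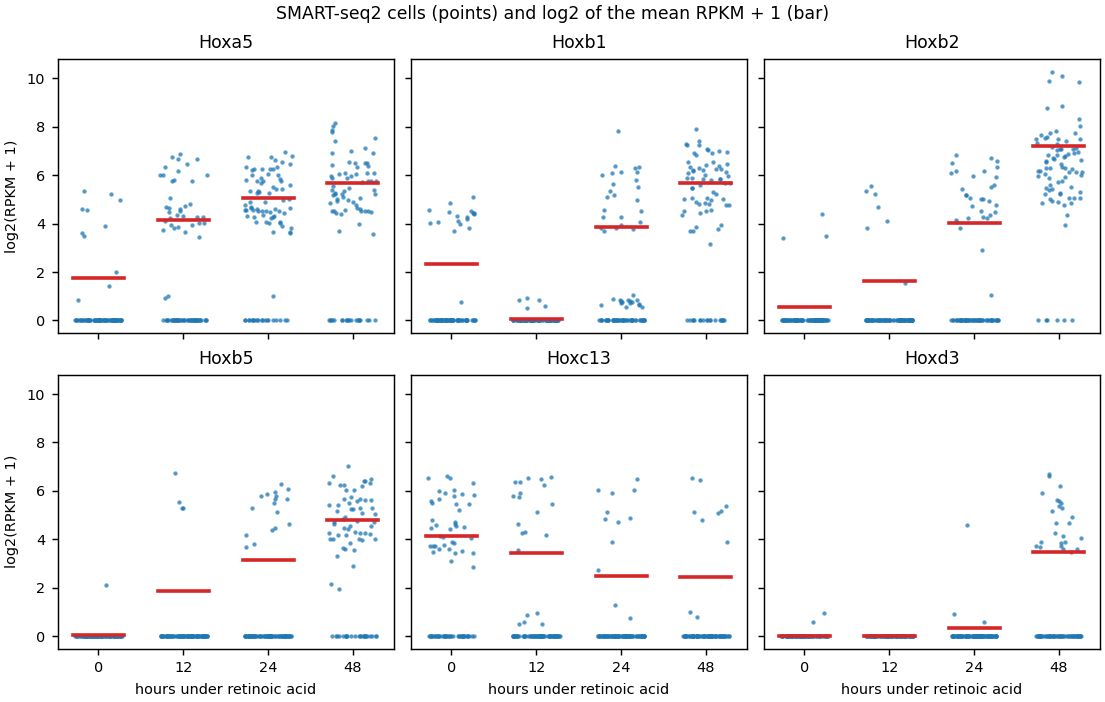
Values of Hoxa5, Hoxb1, Hoxb2, Hoxb5, Hoxc13 and Hoxd3 in single SMART-seq2 cells at 0, 12, 24 and 48 h, as log2(RPKM + 1); each point is a cell and the bar is the log2 of the mean + 1. Hoxc13 is above 1 RPKM in 41 of 82 mESCs and Hoxb2 in 3 of 82, and at 48 h they are so in 9 and 76 of 82 cells.

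Most cells at 48 h held several Hox genes together. Hoxb1 and Hoxb2 were both above 1 RPKM in 62 of 82 cells, Hoxb1 without Hoxb2 in 1, the reverse in 14 and neither in 5. At 24 h the same pair was together in 16 of 89 cells, with 10 holding Hoxb1 without Hoxb2, 16 the reverse and 47 neither.

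The 48 h cells were further set apart by their surface marker RNAs into the 10 cells with the highest Pdgfra and, among the others, the 29 with the highest Cd24a. The Pdgfra limit fell in a wide gap (11.1 against 1.04 RPKM), the Cd24a limit did not (98 against 90.02), and 22 cells lay within 1.5-fold of it. Hoxb2 was above 1 RPKM in 5 of the 10 Pdgfra-high and in 29 of the 29 Cd24a-high cells, with means of 31.5 and 140 RPKM. Hoxb1 (25.2 against 57.6) and Hoxb5 (11.8 against 34.8) were likewise lower in Pdgfra-high cells, and Hoxb3 (21.2 against 15.3) and Hoxa10 (5.48 against 0.803) were higher. Of the 29 members with a mean above 1 RPKM in either class, 23 had the higher mean in Cd24a-high cells, against 55.8% of the 15511 genes with such a mean. These are cells of 1 culture and the difference was not tested.

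The sorted fractions gave a bulk view of the same split. At 48 h Hoxb2 was at 436, 441, 582 and 452 CPM in the CD24 quartiles Q1 to Q4 of PDGFRA- cells, and Q4 over Q1 was 1.04 (0.931 to 1.15). Hoxb1 was at 38.8, 47.8, 47.9 and 46.1 CPM, with a ratio of 1.19 (0.830 to 1.71). Neither differed between the end quartiles beyond counting error.

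Among higher-numbered members some were more abundant with more CD24 and others were not. Hoxb5 was at 10.0, 11.4, 16 and 26.5 CPM in Q1 to Q4 (ratio 2.64, 1.44 to 5.13), and Hoxb6, a mid-trunk member, at 8.03, 13.6, 20.7 and 25.9 CPM (3.23, 1.66 to 6.74). Hoxa5 was at 11.4, 17.9, 16.9 and 22.1 CPM (1.94, 1.06 to 3.70). Hoxb9 was at 10.7, 7.14, 9.4 and 11.4 CPM (1.06, 0.511 to 2.23), and Hoxb7 at 6.02, 6.43, 11.3 and 3.79 CPM, lowest in Q4, on 6 to 12 UMIs. Neither followed the order of the quartiles. The summed ectoderm markers were at 449, 595, 840 and 1108 CPM in the same quartiles, and their part in these orders was not tested.

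At 72 h the PDGFRA+ fraction was nearly free of Hoxb2. Hoxb2 was at 346, 424 and 470 CPM in T1, T2 and T3 of PDGFRA- cells and at 8.08 CPM (11 UMIs) in PDGFRA+ cells, 42.8-fold lower than T1 and 58.2-fold lower than T3. Of the 5 members with at least 10 UMIs in each PDGFRA- fraction, 3 were at least 4-fold lower in PDGFRA+ cells than in all 3 of them (Hoxa5, Hoxb1 and Hoxb2), where 2.59% of the 5935 genes that could be called were. Hoxb5, also among the 5, had 0 UMIs in PDGFRA+ cells against 10, 19 and 40 in T1, T2 and T3. Its level in T1 was too low for a 4-fold call over the floor of 3 UMIs. Of the 2 members that could be called higher, 0 were, where 1.93% of genes were. Hoxa5 and Hoxb1 had 1 UMI each in PDGFRA+ cells, with ratios to T1 of 0.0556 (0.00133 to 0.355) and 0.0338 (0.000826 to 0.204).

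Within the PDGFRA- cells of 72 h the members went different ways with CD24: T3 over T1 was 0.459 (0.218 to 0.915) for Hoxb1. Hoxb2 (1.36, 1.20 to 1.54), Hoxb3 (4.94, 1.40 to 26.6) and Hoxb5 (3.95, 1.94 to 8.86) were higher in T3. The PDGFRA+ fraction also held 4380 CPM of the XEN markers, all of which were detected, and 7167 CPM of the 11 pluripotency markers. Dppa5a gave most of the pluripotency sum, with 9417 UMIs. Each other pluripotency marker had between 0 (Fgf4) and 127 (Nanog) UMIs in this fraction.

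At 96 h the sorted replicates allowed a test, edgeR's quasi-likelihood test on the UMI counts of 2 mESC, 2 ectoderm-like and 2 XEN-like libraries, with Benjamini-Hochberg adjustment over 8947 genes. Only 6 of the 39 Hox genes passed its filter on low counts. Of these, Hoxa2, Hoxb2, Hoxb3, Hoxb4 and Hoxb9 passed through the ectoderm-like libraries, where they were high. The number of members tested or called is therefore a description and no support for a change of the family. Against mESC all 6 were higher in ectoderm-like cells (9.85% of all genes tested were) and 0 lower (9.28%). In XEN-like cells 0 were higher (12.3% of genes) and 0 lower (10.5%). Between the sorted populations 4 were higher in ectoderm-like cells (5.74%) and 0 lower (6.99%).

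For the counts of 0, 1 member was higher in XEN-like cells than in mESC at an unadjusted p under 0.05, and 0 members were lower; the Wald test of DESeq2 had 0 members past the adjusted threshold in that comparison and 1 at an unadjusted p under 0.05. No member was lower at an unadjusted p under 0.05 in ectoderm-like cells against mESC or against XEN-like cells by edgeR. The median log2 difference over the 6 members was 4.29 for ectoderm-like cells against mESC, 1.33 for XEN-like cells against mESC and 4.20 between the sorted cells. As the filter kept most of these members through the ectoderm-like libraries, the medians describe the 6 and are no support for a change of the family. Calls by edgeR rest on 2 libraries a group, which measure the spread between these sorts, and single libraries carried much of them. The count of 6 was 2 without ectoderm-like replicate 1, 11 without XEN-like replicate 1 and 12 without XEN-like replicate 2, and the count of 4 was 1 without ectoderm-like replicate 1, 1 and 2 without XEN-like replicates 1 and 2, and 8 without either mESC replicate. DESeq2 lost the calls of Hoxa2, Hoxb4 and Hoxb9 against mESC (adjusted p = 0.057, 0.0608 and 0.265) and those of Hoxa2, Hoxb3 and Hoxb9 against XEN-like cells (0.0878, 0.21 and 0.0721). With mESC replicate 1 left out, 1 member was lower in ectoderm-like cells than in mESC, against 0.

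Hoxb2 was at 389 and 117 CPM in the ectoderm-like libraries, 5.59 and 4.56 in the XEN-like ones and 1.31 and 2.61 in mESCs. The ectoderm-like libraries were far above all others and the remaining groups close together. The log2 difference was 6.63 ± 0.64 (SE) against mESC (edgeR, adjusted p = 5.1e-05) and 5.49 ± 0.59 against XEN-like cells (adjusted p = 0.00069), higher in 2 of 2 libraries each time. Between XEN-like cells and mESC it was 1.14 ± 0.82 (edgeR, adjusted p = 0.346).

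The other called members were scarce. Hoxa2 was at 10.6 and 10.3 CPM in ectoderm-like, 0.508 and 0 in XEN-like and 0 and 0.435 in mESC libraries, and with 1 UMI in each reference group its pooled ratio was 47.9 (8.06 to 1946) to mESC and 32.1 (5.39 to 1302) to XEN-like cells (edgeR, adjusted p = 0.00287 and 0.00846). Hoxb3, a gene of the posterior hindbrain, was at 13.9 and 5.81 CPM, 1.02 and 0, and 0 and 0, which is at least 15.5-fold higher than mESC for a floor of 3 UMIs over the group (edgeR, adjusted p = 0.0039). Against XEN-like cells, with 2 UMIs, its ratio was 15.6 (3.99 to 134; edgeR, adjusted p = 0.0255).

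Hoxb4 was at 11.1 and 10.98 CPM in ectoderm-like, 2.03 and 2.73 in XEN-like and 1.31 and 0 in mESC libraries, the only called member whose ectoderm-like replicates nearly coincided beside Hoxa2. It was higher than in mESC (log2 difference 3.65 ± 0.80; edgeR, adjusted p = 0.00772) and 2.14 ± 0.71 above XEN-like cells, which missed the threshold (edgeR, adjusted p = 0.0728). Hoxb9, which marks the thoracic cord, was at 14.5 and 6.46 CPM, 0.508 and 0, and 1.31 and 1.74. It was higher than in mESC (2.42 ± 0.66; edgeR, adjusted p = 0.0243), and its ratio to the 1 UMI of XEN-like cells was 33 (5.55 to 1338; edgeR, adjusted p = 0.00891).

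Members below the filter included several of the most induced genes. Hoxb5 was at 31.1 and 3.88 CPM in ectoderm-like and 0 UMIs in XEN-like libraries, at least 18.9-fold higher for a floor of 3 UMIs over the group. Hoxb8 had 25 and 8 UMIs in ectoderm-like and 0 in mESC libraries, at least 15.1-fold higher. Hoxb1 was at 13.9 and 0.646 CPM in ectoderm-like cells, so that its presence at 96 h rested on replicate 1.

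The ectoderm-like replicates differed from each other in many Hox genes. Summed over all members replicate 1 held 637 CPM and replicate 2 held 194 CPM. Replicate 1 over replicate 2 was 3.33 (2.82 to 3.94) for Hoxb2, 8.03 (3.47 to 22.8) for Hoxb5, 8.32 (2.58 to 42.7) for Hoxa5, 14.2 (3.63 to 122) for Hoxc8 and 21.5 (3.52 to 883) for Hoxb1, but 1.02 (0.498 to 2.12) for Hoxa2 and 1.01 (0.504 to 2.06) for Hoxb4. The summed XEN markers were at 485 CPM in replicate 1 and 1779 in replicate 2, the summed ectoderm markers at 2881 and 2686, and their part in these ratios was not tested.

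**Figure D5:**
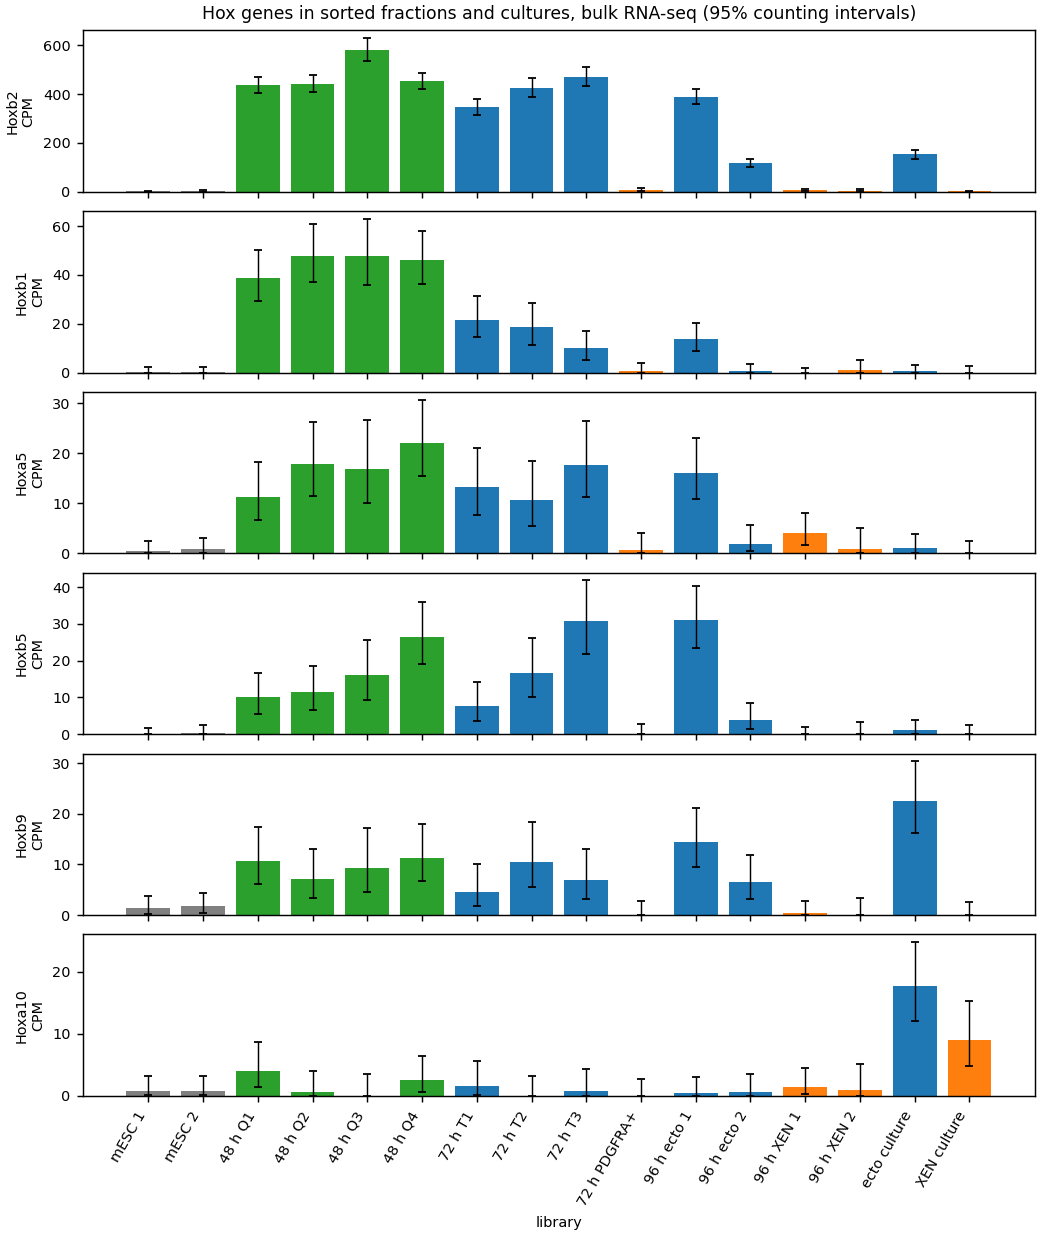
CPM of Hoxb2, Hoxb1, Hoxa5, Hoxb5, Hoxb9 and Hoxa10 in 16 bulk libraries (mESC, CD24 quartiles at 48 h, CD24 terciles and PDGFRA+ cells at 72 h, sorted cells at 96 h and cultures), with exact 95% Poisson intervals; grey marks mESC, green 48 h, blue later PDGFRA- and ectoderm-like, orange PDGFRA+ and XEN-like cells. Hoxb2 is at 8.08 CPM in PDGFRA+ cells at 72 h against 346 to 470 in PDGFRA- cells, and Hoxa10 is highest in the ectoderm-like culture at 17.7 CPM.

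The XEN-like libraries were not wholly free of Hox tags. Summed over all members they held 45.7 and 29.2 CPM, against 28 and 23.5 in mESCs. Low counts in one library can come from others sequenced beside it: the 5 leading genes of the XEN-like culture, such as Tff1, stood at a median of 0.0590% of that culture's level in the other libraries, and the same share of the Hoxb2 summed over all libraries is 3.71 CPM, close to its level in the mESC and XEN-like libraries. Whether Hoxb2 tags there had such an origin was not tested.

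After passage 5 the ectoderm-like culture, in medium without listed RA, still held Hox RNA, at 301 CPM in all, and 34 of the 39 members were detected. Hoxb2 was at 153 CPM (135 to 171), between the sorted replicates, at 0.392 (0.341 to 0.451) of replicate 1 and 1.31 (1.08 to 1.58) of replicate 2. Hoxb9 was at 22.5 CPM and Hoxb7, another thoracic member, at 21.4 CPM, the next highest by tags. Hoxb1 had 1 UMI, against 25 in sorted replicate 1.

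High paralogue numbers had a larger share in that culture. Paralogues 9 to 13 made up 29% of Hox UMIs in the ectoderm-like culture, against 3.14% and 6.33% in the sorted ectoderm-like libraries. Of 11 members that could be called, 3 were at least 4-fold higher than in both sorted libraries (Hoxa10, Hoxb13 and Hoxc10), where 6.67% of 8692 genes were, and of 5 that could be called lower 1 was (Hoxb4), where 3.82% of 7259 genes were. Hoxa10 had 33 UMIs (17.7 CPM) against 1 in each sorted library, with ratios of 31.8 (5.32 to 1293) and 27.3 (4.58 to 1112). Hoxc10, a gene of lumbar motor neurons, had 16 UMIs against 1 and 0, and Hoxb13 16 against 0 and 0. Hoxb4 had 1 UMI against 20 and 17. The summed ectoderm markers were at 1501 CPM in the culture against 2881 and 2686 in the sorted libraries. Mdk, Fabp5 and Crabp1 gave most of the culture's sum (1013, 827 and 671 UMIs). Sox1 had 0 UMIs against 47 and 35, Pax6 7 against 84 and 33, Prtg 12 against 501 and 353, and Cd24a 35 against 483 and 600. Sox11, Meis1 and Crabp1 were also below both sorted libraries, Mdk and Fabp5 lay between them, and Nes was above both. The XEN markers summed to 2235 against 485 and 1779 (11 of 11 detected in each). The mesoderm markers summed to 41.8 against 19.5 and 10.3 (4 of the 6 at 0 in the culture). Sparc gave most of the XEN sum (3477 UMIs against 411 and 1447), and Twist1 most of the mesoderm sum (77 against 32 and 16). Col4a1 and Col4a2 were also above both sorted libraries. Dab2, Lama1, Sox17 and Gata6 were below both, and Lamb1, Lamc1, Gata4 and Pdgfra lay between them. The part of these markers in the Hox values was not tested. Without sorted replicate 2 as a reference, the count of lower members was 8, Hoxa5, Hoxb1 and Hoxb5 among them. The culture is 1 library, so the culture condition and differences between single dishes cannot be told apart.

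Cluster d was also counted in that culture, with 32 UMIs (17.1 CPM, 11.7 to 24.2) against 11 and 4 in the sorted libraries. Hoxd13, the digit and genital gene at the far end of the cluster, gave 14 of them (7.49 CPM), Hoxd11 6 and Hoxd10 5. Hoxc9, which sets thoracic motor neuron identity, had 21 UMIs against 6 and 5.

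The XEN-like culture held 30.4 CPM of Hox tags from 12 members. Its 3 highest were Hoxa10 (13 UMIs, 8.97 CPM), Hoxa7 (9 UMIs, 6.21 CPM) and Hoxd13 (7 UMIs, 4.83 CPM), and Hoxb2 had 2 UMIs. Of the 1 member that could be called 4-fold higher than both sorted XEN-like libraries 0 was, where 10.9% of 8196 genes were, and no member could be called lower, where 4.16% of 5979 genes were. Hoxa10 was 5.89-fold (1.62 to 32.2) higher than in sorted replicate 1 by counting error alone. The XEN-like culture had the smallest number of Hox genes detected but for the PDGFRA+ fraction at 72 h, where there were 11. Its XEN markers summed to 10097 CPM, against 12049 and 6665 in the sorted XEN-like libraries, and its ectoderm markers to 1551 against 605 and 318. Fabp5 (1400 UMIs) and Cd24a (610) gave most of the ectoderm sum. Sox11 was also above both sorted libraries, and Prtg, Mdk, Nes, Meis1 and Crabp1 were below both. The part of these markers in the Hox values was not tested.

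Other genes of the system were counted from lists. TALE homeodomain proteins (Meis, Pbx and Pknox) bind DNA beside Hox proteins: 6 of 9 had an onset, among them Meis1 (also an ectoderm marker) and Pbx2 at 36 h, Meis2 and Meis3 at 48 h and Pknox2 at 60 h. By edgeR 5 of the 7 tested were higher in sorted ectoderm-like cells than in mESC and 4 higher than in XEN-like cells, with 0 lower in either. In XEN-like cells 2 of the 7 were higher than in mESC (Meis1 and Meis3) and 0 lower.

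Of 19 retinoid pathway genes 13 had an onset, and by the onset rule several were called before any Hox gene. Rarg, an RA receptor, had its onset at 6 h, and Cyp26a1, which degrades RA, Stra6 and Stra8 at 12 h. Part of this order turned on the mESC counts. At 12 h Cyp26a1 and Hoxb2 both had 12 UMIs, but Cyp26a1 had 2 and 2 UMIs in mESCs and Hoxb2 3 and 6. Crabp2 and Dhrs3 followed at 24 h with the first Hox genes, Rarb, itself a receptor gene, at 36 h, Cyp26b1 and Aldh1a2 at 48 h, Crabp1 at 60 h, Aldh1a1 at 72 h and Rdh10 at 84 h. Rarb had 0 UMIs in both mESC libraries and 4, 2 and 9 UMIs at 6, 12 and 24 h, under the limit of 10. Of the 12 tested, 6 were higher in ectoderm-like cells than in mESC and 4 in XEN-like cells, with 0 lower. Between the sorted cells 4 were higher in ectoderm-like cells and 1, Cyp26a1, was lower.

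Among 8 known upstream regulators of Hox genes, 3 had an onset, Zfp703 at 24 h the earliest. Of the 4 tested, Zfp703 was higher and Cdx1 lower in ectoderm-like cells than in mESC, and in XEN-like cells 2 were higher, Zfp703 among them, and Cdx1 and Gbx2 lower. Zfp703 was higher in ectoderm-like than in XEN-like cells, and 1 of the 4 was lower. Cdx1, a caudal factor for trunk Hox genes, had 50 and 49 UMIs in mESCs and 3 at 24 h.

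Genes beside the clusters were counted in the same way. Of the 24 protein-coding genes that flank the clusters, 3 on each side, 23 were in the table, 18 had 10 UMIs under RA and 1 had an onset, a number too small to set against the 14.3% of all genes. That gene was Skap1, an adaptor of T cell signalling 96.337 kb beyond Hoxb1, with 1 and 3 UMIs in mESCs, 2 at 6 h, 1 at 12 h, 13 at 24 h, 16 at 36 h, 29 at 48 h, 11 at 60 h, 4 at 72 h, 2 at 84 h and 0 at 96 h. Its highest values fell at 36 and 48 h, as those of Hoxb1 did. The homeobox genes Evx1 and Evx2, at the 5′ ends of clusters a and d, reached 1 and 0 UMIs.

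Tags could be shared between overlapping transcripts. On the GENCODE annotation the exons of 4 members overlap another member (Hoxc5 with Hoxc10 by 166 bases, Hoxd3 with Hoxd4 by 388) and those of 10 overlap an antisense gene, most of all Hoxb3 (52.9% of exon bases) and Hoxb2 (27.3%), both with Hoxb3os. The use of strand in counting was not given in the sources used here, so reads of these genes and of their antisense partners cannot be told apart. On the same strand, where strand would not separate them, Gm28230 overlaps 53.1% of the Hoxd3 and 39.1% of the Hoxd4 exon bases. Gm28308 overlaps 15% of those of Hoxa2 and 8.01% of those of Hoxa3. Non-coding genes listed inside the clusters were near 0: Hotair had at most 1 UMI in a library, and Hoxa11as 5 in the ectoderm-like culture.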

How the data were processed

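The deposited bulk and SCRB-seq tables hold UMI counts per gene; per the study's methods the authors aligned 3′ tags to RefSeq mRNAs with BWA 0.7.4, and the SMART-seq2 tables hold RPKM values that the authors made with TopHat and Cuffnorm (mm10). Whether counting used strand, and how bulk libraries were pooled for sequencing, was not given in the sources used here. Bulk depth ran from 1063830 to 2459483 UMIs per library. Because the Hox genes, the gene lists and the tests were chosen with earlier results of these data known, no list is independent evidence.

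Every Hox gene was kept, those with at least 10 UMIs in a bulk library were named, and values per library were given for genes with the highest levels in the time course and the 3 highest in each culture; other genes named one by one were chosen after their values were seen, and some genes are not reported here. CPM used all UMIs of a library, after 3 damaged cells in 2 other genes were dropped. The edgeR 4.0.16 quasi-likelihood fit (R 4.3.3, filterByExpr, TMM) used the 3 sorted or mESC groups together, with Benjamini-Hochberg adjustment at 0.05; DESeq2 1.42.0 was an alternative. On simulated counts of these 2 groups alone, the edgeR fit recovered 98% of genes changed 8-fold between ectoderm-like cells and mESC (8223 genes, 10 false calls). The changes were set only in genes above a limit on mean counts that Hoxa2, Hoxb3, Hoxb4 and Hoxb9 did not reach. The 98% therefore does not describe such scarce members. Ratios between single libraries have exact 95% conditional binomial intervals, which cover counting error only. SCRB-seq cells with at least 2000 UMIs were kept and thinned to 2000; doublets were not called. Each SMART-seq2 cell was brought to the median total RPKM found at 0 h, with 4 repeated entries dropped and up to 0.140% of values, written as text, read as 0. Marker lists were XEN, ectoderm, pluripotency and mesoderm genes. Replicate numbers of sorted samples were not stated to mark shared batches. Python 3.11.15, pandas 2.3.3, SciPy 1.17.1 and matplotlib 3.10.9 were used. Alternatives covered the filter, the scaling, the block, the thinning and each replicate left out.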

Additional observations from a re-analysis of the deposited data

Results flagged for a closer look

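For 4 Hox genes the change from mESC differed between sorted ectoderm-like and XEN-like cells at 96 h by a test of the difference itself (edgeR's quasi-likelihood test, Benjamini-Hochberg adjustment over 8947 genes, 2 libraries a group). The log2 difference of the changes, ectoderm-like minus XEN-like, was 4.66 ± 0.93 (SE) for Hoxa2 (adjusted p = 0.00846), 5.49 ± 0.59 for Hoxb2 (0.00069), 3.73 ± 0.93 for Hoxb3 (0.0255) and 4.67 ± 0.95 for Hoxb9 (0.00891), all with the higher level in both ectoderm-like libraries. As both changes share the mESC libraries, each value equals the direct difference between the sorted populations. The fitted values of Hoxa2, Hoxb3 and Hoxb9, which had 1 or 2 UMIs in XEN-like cells, depend on the prior count; their pooled ratios with counting intervals stand in the results above. By DESeq2, Hoxb2 was the one of these 4 past the threshold, with adjusted p of 0.0878 for Hoxa2, 0.21 for Hoxb3 and 0.0721 for Hoxb9. For Hoxb4 (2.14 ± 0.71, adjusted p = 0.0728) the test missed the threshold.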

How the results depend on the processing

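The low-count filter decided how many Hox genes could be called. The shares of all genes called under the alternative settings are not given here, so the counts that follow are no result about the family. With no filter, 14 were higher in ectoderm-like cells than in mESC, against 6, and 3 lower, against 0 (Hoxb13, Hoxc12 and Hoxc13); in XEN-like cells 1 was higher and 1 lower (Hoxc12), against 0 and 0; and 11 were higher in ectoderm-like than in XEN-like cells, against 4, since more genes entered the test. DESeq2 gave 2 for that last count, Hoxb2 and Hoxb5, of which Hoxb5 was not tested under the filter. Leaving out each library in turn gave 2 to 12 members higher in ectoderm-like cells than in mESC, 0 to 1 lower, 0 to 0 in XEN-like cells in either direction, and 1 to 8 higher in ectoderm-like than in XEN-like cells; the cause was not tested. Of 107 repeated values of single called genes 83 stayed past the threshold, 24 did not (18 of them with a library left out, 6 with DESeq2) and 0 turned direction; Hoxb2 stayed past it in all. An onset by 12 h was called for 0 members, for 5 with at least 5 UMIs and 2-fold (Hoxa5, Hoxa7, Hoxa10, Hoxb2 and Hoxc5) and for 1 to 2 with an mESC library left out; the 20 onsets in all were within 1.5-fold, at 14 to 22. The level at 96 h, 14% of the peak sum, was 16.3% without Hoxb1 and Hoxb2, and 12.4% with TMM. The share of SCRB-seq cells with a Hox UMI at 24 h, 21%, was 35.9% in cells thinned to 4000 UMIs and 35.1% unthinned, more UMIs giving more chances to see a gene. Alternatives chosen after seeing the data left out a sorted replicate as reference for the ectoderm-like culture: 4 to 4 members were then higher, against 3, and 1 to 8 lower, against 1. With the replicate block the counts were 6, 0 and 4, as without it; the replicate numbers are only numbers, with 2 pairs whose deviations correlated at 0.333 over 8947 genes. Depth limits the rest: a member under 3 UMIs, about 1.22 to 2.82 CPM, could not be told from 0.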

Other observations

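Outside the comparisons, the deposited values held 2 features of single members. In SMART-seq2 cells Hoxa10 was above 1 RPKM in 12 of 82 cells at 0 h, 24 of 86 at 12 h, 36 of 89 at 24 h and 8 of 82 at 48 h, a course that had its highest share at 24 h. Hoxa2 was above 1 RPKM in 7, 13, 41 and 23 cells and Hoxa7 in 21, 19, 42 and 25 cells at the same times, while Hoxb4 was in 4, 17, 30 and 48. Members of cluster a with 24 h maxima thus stood beside members of cluster b still more frequent at 48 h, in 1 culture per time and with no test.

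Among the assays the order of levels at 48 h was not the same. Hoxb2 was at 583 and Hoxb1 at 45.9 CPM in bulk 3′ tags, Hoxb1 gave 283 and Hoxb2 183 UMIs in SCRB-seq, and Hoxb2 was at 145 and Hoxb1 at 50.0 RPKM in SMART-seq2 cells. By the study's methods, bulk libraries used the 3′ tag protocol of SCRB-seq with more concentrated adapters, on extracted RNA of many cells. SMART-seq2 cells came from another replicate and were read as full-length cDNA. Whether bulk and SCRB-seq shared a culture was not stated, and the source of the different orders was not tested.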
